A study of Homo sapiens with 12 samples.

Results

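CXCL9, CXCL10 and CXCL11 encode the chemokines that bind the receptor CXCR3, and they were taken by name as 3 rows of a table of 27685 genes. All 3 were among the 15769 genes that passed the filter on low counts, which they did through the IFNγ-treated libraries. The RNA came from the established glioblastoma line U251, whose cells carried a hairpin against the long noncoding RNA INCA1 (shINCA1) or a control hairpin (shCTRL). Each line was treated with interferon gamma (IFNγ) for 24 h or left untreated, at passages 14 to 18. The 12 libraries form 4 groups of 3: shINCA1 with IFNγ, shINCA1 untreated, shCTRL with IFNγ and shCTRL untreated. Every group carries a hairpin, and the labels describe 1 line for each, so an effect of the hairpin and a difference between lines cannot be told apart.

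CXCR3 is carried by activated T cells and natural killer cells, and its ligands draw these cells into inflamed tissue and tumours. All 3 ligand genes are classic targets of IFNγ. IFNγ binds the receptor chains IFNGR1 and IFNGR2, the kinases JAK1 and JAK2 carry the signal on, and it reaches target genes through GAS elements. IRF1 and other factors of its family bind interferon-stimulated response elements (ISRE), and NF-κB has binding sites of its own at these genes.

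The promoters of the 3 genes are shown because the genes were silent without IFNγ and switched on with it. Each is the RefSeq window of GRCh38.p14 from 250 bases before to 50 bases after the gene start, read 5′ to 3′ on the minus strand. The windows are chr4:76007460-76007759 for CXCL9, chr4:76023448-76023747 for CXCL10 and chr4:76036021-76036320 for CXCL11, and 3 of 3 genes had an entry. Capitals mark matches to GAAANNGAAA (ISRE), TTCNNNGAA (GAS) and GGGANNNNCC (NF-κB), each searched on both strands.
CXCL9: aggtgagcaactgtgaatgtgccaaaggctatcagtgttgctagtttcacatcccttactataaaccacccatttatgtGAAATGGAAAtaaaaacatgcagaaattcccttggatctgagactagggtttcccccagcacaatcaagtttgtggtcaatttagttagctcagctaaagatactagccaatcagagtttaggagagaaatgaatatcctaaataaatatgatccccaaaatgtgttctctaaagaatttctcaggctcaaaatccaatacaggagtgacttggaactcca
CXCL10: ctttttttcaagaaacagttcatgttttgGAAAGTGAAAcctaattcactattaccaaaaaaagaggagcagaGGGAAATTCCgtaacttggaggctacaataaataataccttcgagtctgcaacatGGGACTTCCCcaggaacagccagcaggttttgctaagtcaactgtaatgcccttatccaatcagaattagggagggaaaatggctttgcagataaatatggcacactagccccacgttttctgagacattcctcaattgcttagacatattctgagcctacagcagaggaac
CXCL11: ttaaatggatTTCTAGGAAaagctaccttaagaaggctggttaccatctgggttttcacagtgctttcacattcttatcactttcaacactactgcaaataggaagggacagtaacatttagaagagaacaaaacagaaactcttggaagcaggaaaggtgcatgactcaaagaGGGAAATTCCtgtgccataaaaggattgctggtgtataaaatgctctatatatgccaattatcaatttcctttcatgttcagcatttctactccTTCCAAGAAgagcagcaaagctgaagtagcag

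The windows held different sets of matches. CXCL9 had 1 ISRE match, GAAATGGAAA. CXCL10 had the ISRE match GAAAGTGAAA and the NF-κB matches GGGAAATTCC and GGGACTTCCC. CXCL11 had no ISRE match but held the GAS matches TTCTAGGAA and TTCCAAGAA and the NF-κB match GGGAAATTCC, whose letters also stand in CXCL10. None of these matches overlapped another. Of 35116 RefSeq windows of this length, 3.57% held the ISRE letters, 7.66% the GAS letters and 25.6% the NF-κB letters. A match describes the letters only, and binding was not measured.

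Libraries held 46525032 to 66242859 estimated counts. Levels are in CPM (counts scaled to library size with TMM factors), and differences were tested with edgeR's quasi-likelihood test over all 15769 genes with Benjamini-Hochberg adjusted p and a threshold of 0.05. The table's INCA1 row is a protein-coding gene of chromosome 17, so knockdown of the noncoding RNA was not analysed here. The labels do not state separate cultures, and the p-values therefore describe the spread among these libraries, which may be technical. Of 7 glioma line markers 6 were above 1 CPM, and CD3E, CD2, NKG7 and GNLY of 6 T and NK cell markers and AIF1 and TYROBP of 7 myeloid markers were at 0 in all libraries.

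IFNγ switched on all 3 ligand genes in shINCA1 cells, but only to a few CPM. CXCL9 had 1.10, 0.551 and 0.741 CPM in the IFNγ-treated shINCA1 libraries, against 0 in all 3 untreated shINCA1 libraries. CXCL10 had 4.27, 4.59 and 3.74 CPM in the treated libraries, against 0 in all 3 untreated ones. CXCL11 had 1.60, 2.37 and 2.24 CPM in the treated libraries, again against 0 in all 3 untreated ones. Every treated library lay above every untreated one, and CXCL9 was lowest of the 3 genes in each treated library. A count of 0, taken at a floor of 3 counts per library, allows up to 0.0487 CPM in untreated shINCA1 cells. Against that floor the treated cells were at least 16.6-fold higher for CXCL9, at least 86.1-fold for CXCL10 and at least 42.1-fold for CXCL11. The edgeR adjusted p was 0.000142 for CXCL9, 1.04e-07 for CXCL10 and 6.88e-06 for CXCL11, so 3 of 3 were called raised. Among all genes 6.13% were called raised, 2.95% lowered and 9.08% either way, and 13.5% had every treated library above every untreated one.

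These levels rest on small counts. CXCL9 had 63, 27 and 40 estimated counts in the IFNγ-treated shINCA1 libraries, CXCL10 had 245, 225 and 202, and CXCL11 had 92, 116 and 121. In the table the value 3 occurs 5790 times, against 2186 times for 2 and 1317 times for 4, as if 1 sequenced fragment often gave about 3 counts. Intervals from counts may therefore be too narrow, and they cover counting error only.

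In shCTRL cells the same treatment brought the ligand genes to far higher levels. CXCL9 had 130.5, 128 and 121 CPM in the IFNγ-treated shCTRL libraries, against 0 in all 3 untreated shCTRL libraries. CXCL10 had 165, 163 and 176 CPM in the treated libraries, against 0, 0.0637 and 0 CPM in the untreated ones. CXCL11 had 29.6, 34.8 and 35.7 CPM in the treated libraries, against 0 in all 3 untreated ones. The treated libraries were far above the untreated ones for every gene, and the single untreated value above 0, CXCL10 in replicate 2, was 3 counts. With IFNγ, CXCL9 was at least 2288-fold and CXCL11 at least 610.2-fold higher, against a floor of 0.0552 CPM. For CXCL10 the ratio was 9117, with a 95% exact interval of 3119 to 44210. That ratio rests on the 3 untreated counts, which may be 1 fragment, while the interval takes them as independent. The untreated CXCL10 mean, 0.0212 CPM, is under the floor used for the other genes, so this ratio cannot be set against their bounds. In edgeR the adjusted p was 1.92e-08 for CXCL9, 1.56e-10 for CXCL10 and 6.95e-08 for CXCL11. Thus 3 of 3 were called raised, where 9.72% of all genes were called raised, 7.51% lowered and 17.2% either way, and 16.5% did not overlap in the upward direction. With upper-quartile scaling these calls split as 1201 raised and 1970 lowered genes in shCTRL cells, against 1532 and 1184 with TMM, and as 815 and 733 in shINCA1 cells, against 967 and 465.

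**Figure D1:**
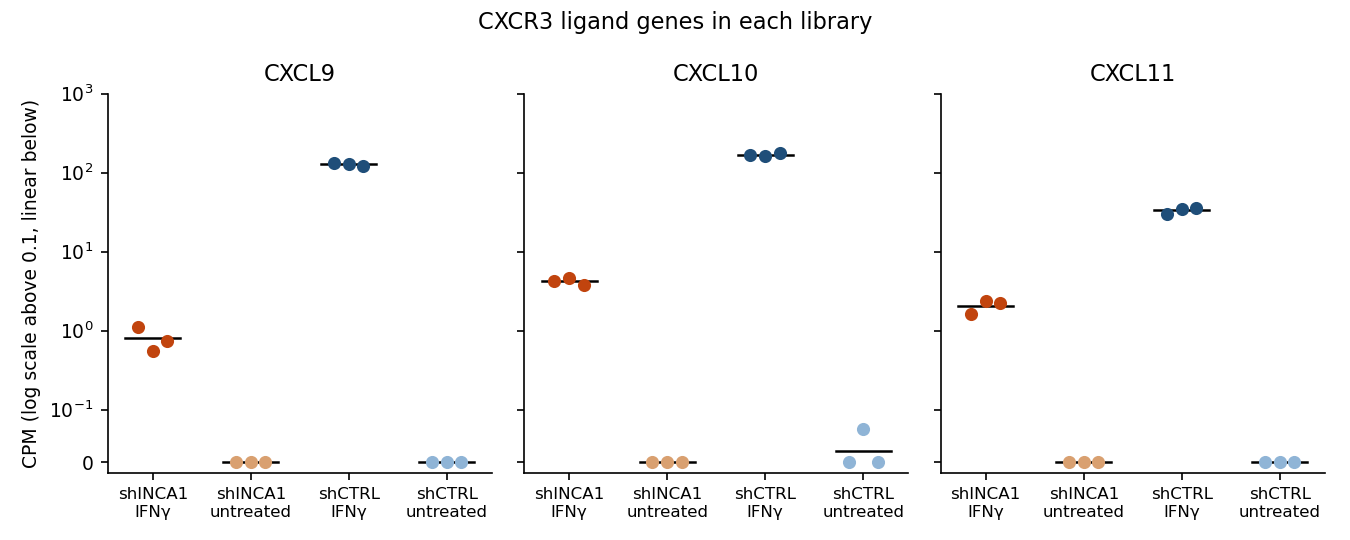
CPM of CXCL9, CXCL10 and CXCL11 in each of the 12 libraries, by group, on an axis that is logarithmic above 0.1 CPM and linear below it; each point is a library and each bar a group mean. IFNγ-treated shINCA1 libraries lie between 0.551 and 4.59 CPM, IFNγ-treated shCTRL libraries between 29.6 and 176 CPM, and untreated libraries at 0 apart from CXCL10 in 1 shCTRL library.

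With IFNγ, all 3 ligand genes were far lower in shINCA1 than in shCTRL cells, CXCL9 by the most and CXCL11 by the least. CXCL9 averaged 0.796 ± 0.278 CPM in IFNγ-treated shINCA1 cells and 127 ± 4.62 CPM in IFNγ-treated shCTRL cells (SD, n = 3 each). Its log2 difference was -7.29 ± 0.17 (SE, edgeR adjusted p = 1.05e-08). CXCL10 averaged 4.20 ± 0.428 CPM in shINCA1 and 168 ± 6.96 CPM in shCTRL cells, a log2 difference of -5.32 ± 0.13 (edgeR adjusted p = 6.13e-10). CXCL11 averaged 2.07 ± 0.409 CPM in shINCA1 and 33.4 ± 3.33 CPM in shCTRL cells, a log2 difference of -4.02 ± 0.16 (edgeR adjusted p = 1.93e-07). For each gene the highest shINCA1 library was below the lowest shCTRL library. From pooled counts, shINCA1 cells were lower by 156-fold (95% exact interval 131 to 187) for CXCL9, 40.0-fold (95% exact interval 37.1 to 43.3) for CXCL10 and 16.4-fold (95% exact interval 14.7 to 18.4) for CXCL11. The 3 genes together summed to 6.97, 7.50 and 6.72 CPM in the treated shINCA1 libraries and 325, 325 and 333 CPM in the treated shCTRL libraries.

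The lines differed in many genes, which is the background of that comparison. Among all genes 28.7% were called higher and 30.2% lower in IFNγ-treated shINCA1 cells, 58.9% in all, and 33.8% had every shINCA1 library below every shCTRL library. Ordered by fitted log2 difference, CXCL9 was number 120, CXCL10 number 215 and CXCL11 number 276 from the lowest of 15769 genes. In bulk RNA, fewer responding cells and less RNA per cell cannot be told apart. The summed myeloid marker level was 11.4 to 13.1 CPM in IFNγ-treated shINCA1 and 13.8 to 15.3 CPM in IFNγ-treated shCTRL libraries, most of it CD68 (10.3 and 13.7 CPM on average), while PTPRC, the common leukocyte gene, was at 0 in these 6 libraries. CSF1R, a receptor gene of the same list, averaged 1.36 CPM in shINCA1 and 0.593 CPM in shCTRL libraries. Summed endothelial markers, nearly all KDR, were at 14.2 to 16.7 CPM in treated shINCA1 and 8.61 to 9.69 CPM in treated shCTRL libraries, with CLDN5 at 0 throughout. Summed neuron markers, mostly SYT1, were at 7.22 to 8.76 CPM in shINCA1 and 4.22 to 5.13 CPM in shCTRL libraries, with RBFOX3 at 0 in these 6. Summed oligodendrocyte markers were at 0 to 0.204 CPM in shINCA1 and 0.565 to 0.831 CPM in shCTRL libraries, with MOG at 0 throughout. The glioma line markers summed to 4182 to 4265 CPM in shINCA1 and 4865 to 4994 CPM in shCTRL libraries, but went both ways. NES averaged 28.9 and 116 and FN1 65.4 and 348 CPM in shINCA1 and shCTRL libraries. VIM (1917 and 2565), ANXA1 (537 and 616) and GFAP (0.476 and 0.989) were lower in shINCA1 too. CD44 (822 and 568) and S100A6 (851 and 703) were higher in shINCA1. The part of these markers in the ligand difference was not tested.

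Without IFNγ no difference between the lines was detectable for the ligand genes at this depth. In edgeR 0 of 3 were called, and 0 of 3 had an unadjusted p under 0.05, the values being 1 for CXCL9, 0.0729 for CXCL10 and 1 for CXCL11. DESeq2 called 0 of 3 as well. Among all genes 27.4% were called higher and 29.5% lower in untreated shINCA1 cells, 56.9% in all. Both lines were at or near 0, so no fold is given.

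For the same reason the difference between the responses, shINCA1 minus shCTRL, could hardly be measured on a log scale. In edgeR 0 of 3 were called, with adjusted p of 1 for CXCL9, 0.947 for CXCL10 and 1 for CXCL11, and 0 of 3 passed at an unadjusted p under 0.05. DESeq2 called CXCL9 (adjusted p = 0.0015) and neither of the other genes. Among all genes 0.615% were called with a larger and 1.10% with a smaller response in shINCA1 cells, 1.71% in all.

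The mix of ligands also differed between the lines. Per kilobase of the canonical transcript (2761 bases for CXCL9, 1175 for CXCL10 and 1479 for CXCL11, GENCODE v44), IFNγ-treated shINCA1 cells had levels of 3.57 ± 0.364 CPM for CXCL10, 1.40 ± 0.276 for CXCL11 and 0.288 ± 0.101 for CXCL9 (SD, n = 3). In IFNγ-treated shCTRL cells the levels per kilobase were 143 ± 5.92 CPM for CXCL10, 45.8 ± 1.67 for CXCL9 and 22.6 ± 2.25 for CXCL11. CXCL10 led in both lines, while CXCL9 and CXCL11 changed places. Neighbours in each order did not overlap: in shINCA1 cells the lowest CXCL11 library was at 1.08 and the highest CXCL9 library at 0.398 CPM per kilobase, and in shCTRL cells the lowest CXCL9 library was at 43.99 and the highest CXCL11 library at 24.2.

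Ratios within a library, which need no scaling between libraries, showed the same change of order. There were 0.685, 0.233 and 0.331 CXCL9 counts per CXCL11 count in the IFNγ-treated shINCA1 libraries, against 4.41, 3.67 and 3.40 in the IFNγ-treated shCTRL libraries. CXCL9 per CXCL10 stood at 0.257, 0.120 and 0.198 in shINCA1 and 0.792, 0.785 and 0.692 in shCTRL libraries. CXCL11 per CXCL10 stood at 0.376, 0.516 and 0.599 in shINCA1 and 0.179, 0.214 and 0.204 in shCTRL libraries. The lines overlapped in none of the 3 ratios. On the log2 scale the shift, shINCA1 minus shCTRL, was -3.34 for CXCL9 per CXCL11, -2.05 for CXCL9 per CXCL10 and 1.30 for CXCL11 per CXCL10. The exact two-sided permutation p was 0.1 for each, the smallest that 3 against 3 can give, and the ratios were chosen after the values had been seen.

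As a share of the 3 genes' counts, CXCL9 made up 11.4% ± 4.22 in IFNγ-treated shINCA1 and 38.6% ± 1.91 in IFNγ-treated shCTRL libraries (SD, n = 3 each). CXCL11 made up 29.3% ± 5.52 in shINCA1 and 10.2% ± 0.937 in shCTRL libraries. CXCL10, the largest share in both lines, made up 59.4% ± 3.20 in shINCA1 and 51.2% ± 1.43 in shCTRL libraries. The exact two-sided permutation p was 0.1 for each share and 0.1 after adjustment over the 3. Per base of transcript the CXCL10 share was 67.9% ± 3.51 in shINCA1 and 67.6% ± 1.10 in shCTRL libraries, a difference smaller than the spread, while CXCL9 held 5.56% ± 2.14 and 21.7% ± 1.34, and CXCL11 26.6% ± 4.83 and 10.7% ± 0.914.

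**Figure D2:**
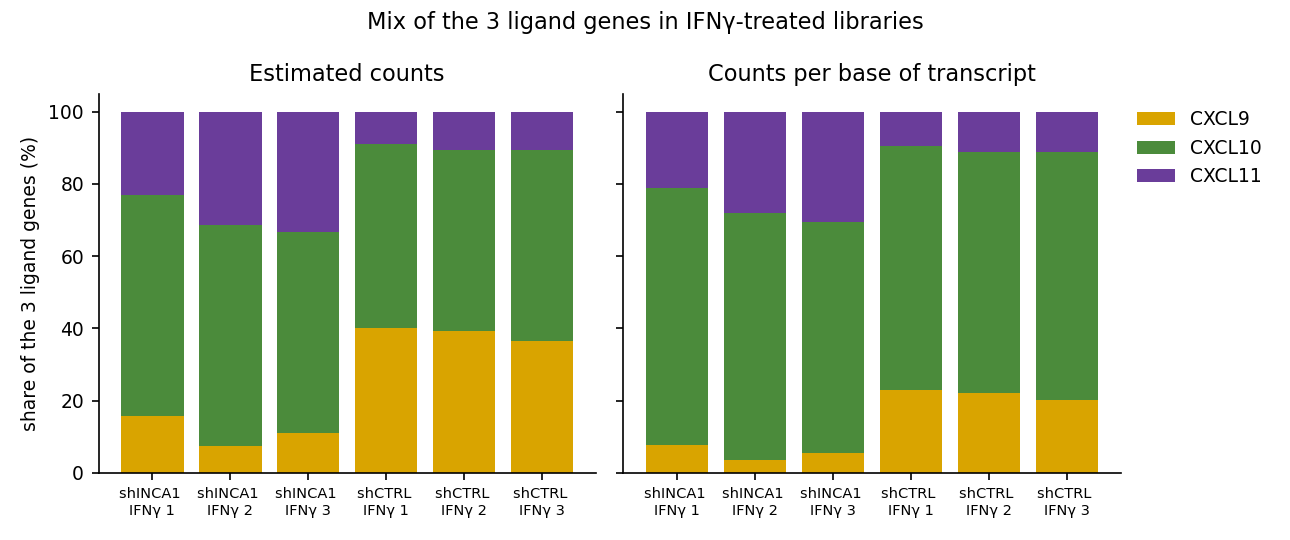
Share of each ligand gene in the sum of the 3 (percent) for the 6 IFNγ-treated libraries, as estimated counts and as counts per base of transcript. By counts the CXCL9 share averages 11.4% in shINCA1 and 38.6% in shCTRL libraries, and the CXCL11 share 29.3% and 10.2%.

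Genes that carry the IFNγ signal to these promoters were also lower in IFNγ-treated shINCA1 cells, by less than the ligands. Of 13 listed genes 11 were tested, and 0 were called higher and 10 lower, with a median log2 difference of -0.66 against -0.0012 over all tested genes, of which 28.7% were called higher and 30.2% lower. JAK2 had 19.9, 22.4 and 21.4 CPM in treated shINCA1 and 58.0, 59.9 and 57.0 CPM in treated shCTRL libraries, a log2 difference of -1.46 ± 0.08 (edgeR adjusted p = 1.75e-08). IRF1 had 632, 632 and 620.5 CPM in shINCA1 and 938, 931 and 941 CPM in shCTRL libraries, a log2 difference of -0.58 ± 0.05 (edgeR adjusted p = 9.59e-07). The lines did not overlap for either gene. The kinase gene JAK1 differed by -0.67 ± 0.04 and the receptor chain gene IFNGR1 by -0.65 ± 0.05, both called lower. The other receptor chain gene, IFNGR2, was at -0.11 ± 0.05 (edgeR adjusted p = 0.0762). IRF3 was called at an edgeR adjusted p of 0.0498 and lost its call in 13 of 19 alternatives. IRF7 was at 0 in every library, and IRF8 did not pass the filter.

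Without IFNγ 0 of these genes were called higher and 8 lower in shINCA1 cells, against 27.4% higher and 29.5% lower over all genes. JAK1 differed by -0.60 ± 0.04, IFNGR1 by -0.80 ± 0.05 and IRF9, an ISRE-binding factor gene, by -1.15 ± 0.11 on the log2 scale in untreated cells.

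IFNγ raised 7 of the 11 signal genes in shINCA1 and 8 in shCTRL cells and lowered 0 in either line, against 6.13% of all genes raised in shINCA1 and 9.72% in shCTRL cells. The call of IRF3 in shINCA1 cells was lost in 6 of 19 alternatives. IRF1 rose by 5.75 ± 0.06 on the log2 scale in shINCA1 and by 5.96 ± 0.06 in shCTRL cells, a difference of -0.21 ± 0.07 (edgeR adjusted p = 0.245, 0.00543 in DESeq2). JAK2 rose by 0.90 ± 0.08 in shINCA1 and by 1.94 ± 0.08 in shCTRL cells, and this difference of -1.04 ± 0.11 was called (edgeR adjusted p = 0.000527). IRF9 rose by 3.10 ± 0.11 in shINCA1 and by 2.57 ± 0.10 in shCTRL cells, a difference in the other direction of 0.52 ± 0.14 (edgeR adjusted p = 0.119) that was called in 2 of 18 alternatives. In the edgeR test JAK2 alone of the 11 signal genes was called, where 1.71% of all genes were. STAT3 was called raised in shCTRL cells alone, a call lost in 12 of 19 alternatives, and the difference between its responses was not called (edgeR adjusted p = 0.547).

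Set against IRF1 in the same library, the ligand genes were far apart between the lines. Per 1000 IRF1 counts there were 6.76, 7.26 and 6.03 CXCL10 counts in the IFNγ-treated shINCA1 libraries and 176, 175 and 187 in the IFNγ-treated shCTRL libraries. CXCL9 stood at 1.74, 0.871 and 1.19 per 1000 IRF1 counts in shINCA1 and 139, 137 and 129 in shCTRL libraries. CXCL11 stood at 2.54, 3.74 and 3.61 in shINCA1 and 31.5, 37.4 and 38.0 in shCTRL libraries. None of these quotients overlapped between the lines. IRF1 itself differed by only -0.58 ± 0.05 on the log2 scale, so dividing by it could not have brought the lines together. The part of IRF1 in the ligand difference was not tested.

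Repressors and brakes of the pathway were called in both directions. Of 10 tested, 3 were called higher and 7 lower in IFNγ-treated shINCA1 cells, with a median log2 difference of -0.21. Over all genes 28.7% higher and 30.2% lower were called. The share called higher is thus near the background, while that called lower, 7 of 10, is above it. SOCS1, a feedback inhibitor of JAK kinases, had 2.42, 2.63 and 2.44 CPM in treated shINCA1 and 9.94, 8.76 and 9.39 CPM in treated shCTRL libraries, a log2 difference of -1.90 ± 0.17 (edgeR adjusted p = 1.17e-06). The histone methyltransferase gene EZH2 differed by -0.54 ± 0.03, the deacetylase gene HDAC1 by -0.19 ± 0.03 and the phosphatase gene PTPN1 by 0.35 ± 0.03, all called. IFNγ raised 3 of the 10 in shINCA1 and 5 in shCTRL cells and lowered 0, against 6.13% and 9.72% of all genes raised. SOCS1 rose by 3.12 ± 0.21 in shINCA1 and by 5.17 ± 0.22 in shCTRL cells, a difference of -2.05 ± 0.32 (edgeR adjusted p = 0.00672).

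**Figure D3:**
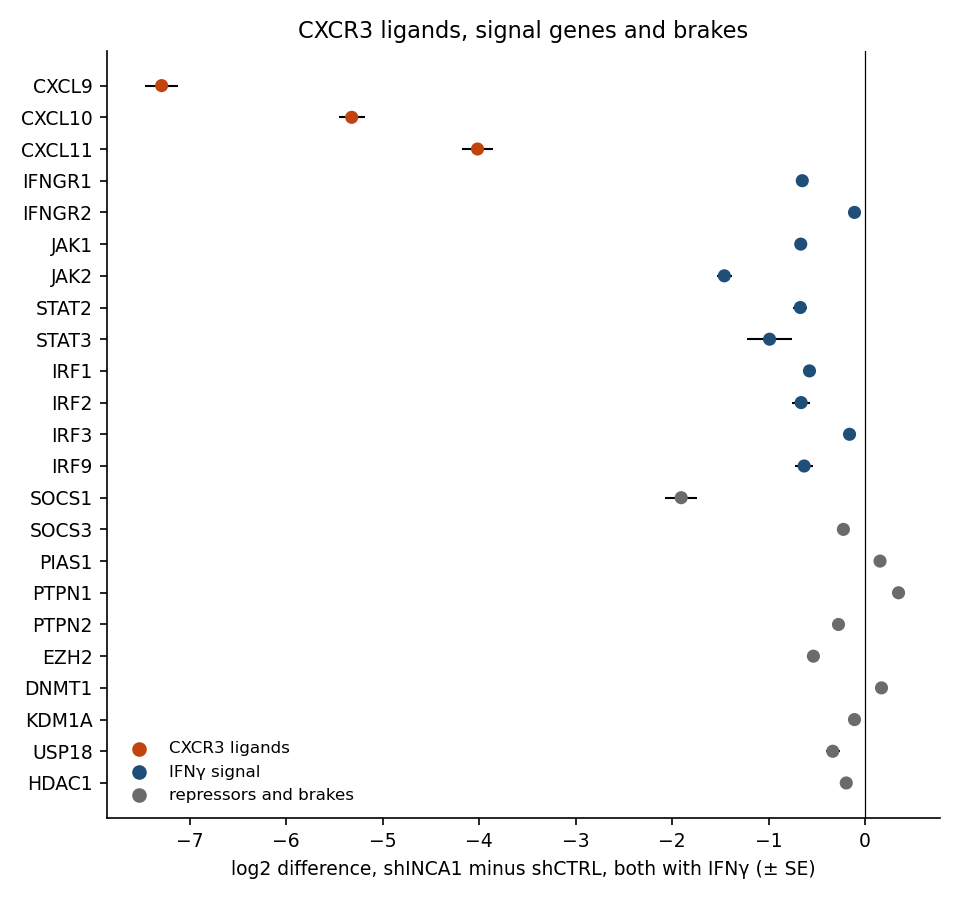
Log2 difference between IFNγ-treated shINCA1 and IFNγ-treated shCTRL cells (± SE) for the ligand genes and 10 genes of the signal and 10 of the brake list. The ligands lie at -7.29, -5.32 and -4.02, JAK2 at -1.46 and SOCS1 at -1.90.

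NF-κB subunits and coactivators differed by less than 1 log2 unit, with shares called not far from those of all genes. Of 11 tested, 3 were called higher and 5 lower in IFNγ-treated shINCA1 cells, with a median log2 difference of 0.01, where 28.7% higher and 30.2% lower were called over all genes (58.9% in all). NFKBIA, the gene of the NF-κB inhibitor, differed by 0.39 ± 0.07, NFKBIZ by -0.72 ± 0.16 and RELA, an NF-κB subunit gene, by -0.14 ± 0.03. IFNγ raised 2 of them in shINCA1 and 2 in shCTRL cells, against 6.13% and 9.72% of all genes raised. NFKB1 was called in both, at 0.26 ± 0.05 in shINCA1 and 0.29 ± 0.05 in shCTRL cells. The call of RELA in shINCA1 cells was lost in 17 of 19 alternatives and that of NFKBIZ in shCTRL cells in 6 of 19. Between the treated lines NFKB2, called higher, lost its call in 11 of 19 alternatives and EP300, called lower, in 2 of 19.

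Factors that act on AU-rich mRNAs such as those of chemokines were mostly not called. Of 7 tested, 1 was called higher and 1 lower in IFNγ-treated shINCA1 cells, KHSRP at 0.14 ± 0.04 and ZFP36L2 at -0.28 ± 0.04 on the log2 scale, where 58.9% of all genes were called. IFNγ raised 2 of them in shINCA1 and 2 in shCTRL cells, against 6.13% and 9.72% of all genes raised. These were ZFP36 (0.71 ± 0.11 in shINCA1 and 0.99 ± 0.11 in shCTRL cells) and ZFP36L2 (0.36 ± 0.04 and 0.46 ± 0.04). Between the treated lines ZFP36L1 had the largest fitted difference of the 7, -1.42 ± 0.63, but was not called (edgeR adjusted p = 0.0708). Its libraries spread widely, at 9.32, 18.0 and 11.4 CPM in treated shINCA1 and 28.6, 17.4 and 57.2 CPM in treated shCTRL cells.

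On the receiving side, CXCR3 itself was at 0 in all 12 libraries, as was DPP4, whose product trims these chemokines. The chemokine genes PF4, PF4V1 and CCL21, listed with them, were at 0 as well. ACKR3, an atypical receptor that takes up CXCL11, had 0.105, 0 and 0.111 CPM in IFNγ-treated shINCA1 and 4.73, 3.84 and 4.74 CPM in IFNγ-treated shCTRL libraries, a log2 difference of -5.85 ± 0.49 (edgeR adjusted p = 8.25e-07). It was low in the shINCA1 line without IFNγ too, at 0, 0.0998 and 0 CPM against 7.34, 7.49 and 8.61 CPM in untreated shCTRL libraries. SDC4, a heparan sulphate proteoglycan gene, was higher by 0.37 ± 0.04 in treated shINCA1 cells. Of 7 genes in this list 2 were tested, 1 called higher and 1 lower in treated shINCA1 cells. Over all genes 28.7% were called higher and 30.2% lower there. The response to IFNγ was called for 0 of the 2 in either line, against 9.08% of all genes in shINCA1 and 17.2% in shCTRL cells. ACKR3 in shCTRL cells (-0.82 ± 0.30, edgeR adjusted p = 0.094) was called in 5 of 19 alternatives.

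The neutrophil-attracting ELR chemokines, from another cluster on chromosome 4, were mostly silent. CXCL8 (interleukin 8) had 5.73, 7.69 and 6.78 CPM in IFNγ-treated shINCA1 and 0.830, 0.956 and 0.548 CPM in IFNγ-treated shCTRL libraries. It was thus higher in every treated shINCA1 library, by 3.11 ± 0.17 on the log2 scale (edgeR adjusted p = 2.25e-08), the opposite direction to the CXCR3 ligands. Without IFNγ CXCL8 differed between the lines too, by 2.45 ± 0.16 (edgeR adjusted p = 1.03e-07). The ligands were at or near 0 there, so they could not be compared in this way. CXCL8 then had 7.52, 8.75 and 8.06 CPM in untreated shINCA1 and 1.46, 1.51 and 1.47 CPM in untreated shCTRL libraries. With IFNγ it was at -0.27 ± 0.15 in shINCA1 cells (edgeR adjusted p = 0.361) and at -0.92 ± 0.19 in shCTRL cells (edgeR adjusted p = 0.00425), and the difference between these responses was not called (edgeR adjusted p = 0.27). CXCL2 and CXCL3 were called in 0 comparisons, and CXCL1, CXCL5, CXCL6 and PPBP were at 0 throughout. PF4 and PF4V1, listed with this cluster but without the ELR motif, were at 0 as well. Thus 1 of 3 tested genes was called higher and 0 lower in treated shINCA1 cells, where 28.7% higher and 30.2% lower were called over all genes.

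The genes around the cluster mostly did not show the difference of the ligands. In the order of the annotation SDAD1, CXCL9, ART3, CXCL10, CXCL11 and NUP54 follow each other. SDAD1 averaged 219.6 ± 5.91 CPM in IFNγ-treated shINCA1 and 199 ± 0.557 CPM in IFNγ-treated shCTRL libraries (SD, n = 3 each), a log2 difference of 0.14 ± 0.03 (edgeR adjusted p = 0.00277). NUP54, a nuclear pore gene, was at -0.04 ± 0.04 (edgeR adjusted p = 0.481). Of 12 tested neighbours 6 were called higher and 3 lower, with a median log2 difference of 0.09, where 28.7% higher and 30.2% lower were called over all genes. The largest differences among them, after ART3, were STBD1 at -1.19 ± 0.15 and THAP6 at 0.91 ± 0.07.

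ART3, an ADP-ribosyltransferase gene on the opposite strand, was the neighbour that moved with the ligands. It had 0, 0 and 0.185 CPM in the IFNγ-treated shINCA1 libraries, against 0.975, 1.35 and 1.38 CPM in the IFNγ-treated shCTRL libraries. In all 6 untreated libraries it was at 0. ART3 passed the filter on low counts only through the treated shCTRL libraries, where it is high, so its calls add no independent support. Every treated shINCA1 library was below every treated shCTRL library, at a log2 difference of -4.27 ± 1.04 (edgeR adjusted p = 0.00861), which DESeq2 did not call (adjusted p = 0.252). Its shINCA1 level rests on replicate 3 alone, and without that library the fitted difference was -9.14, which is no bound. In shCTRL cells ART3 was at least 22.7-fold higher with IFNγ (edgeR adjusted p = 0.00769, 0.0644 in DESeq2). In the GRCh38 annotation the ART3 gene spans CXCL10 and CXCL11 and shares 0 exon bases with either. Whether counting used strand is not stated, so reads of ART3 and of the ligand genes cannot be told apart with certainty.

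Apart from ART3, changes called with IFNγ around the cluster were under 1 log2 unit. IFNγ raised 1 and lowered 0 of the 12 tested neighbours in shINCA1 cells and raised 4 and lowered 1 in shCTRL cells. The shares over all genes were 6.13% raised and 2.95% lowered in shINCA1 and 9.72% raised and 7.51% lowered in shCTRL cells. SDAD1 rose by 0.17 ± 0.03 in shINCA1 and by 0.40 ± 0.03 in shCTRL cells, a difference of -0.23 ± 0.05 (edgeR adjusted p = 0.0265) that lost its call in 9 of 18 alternatives.

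**Figure D4:**
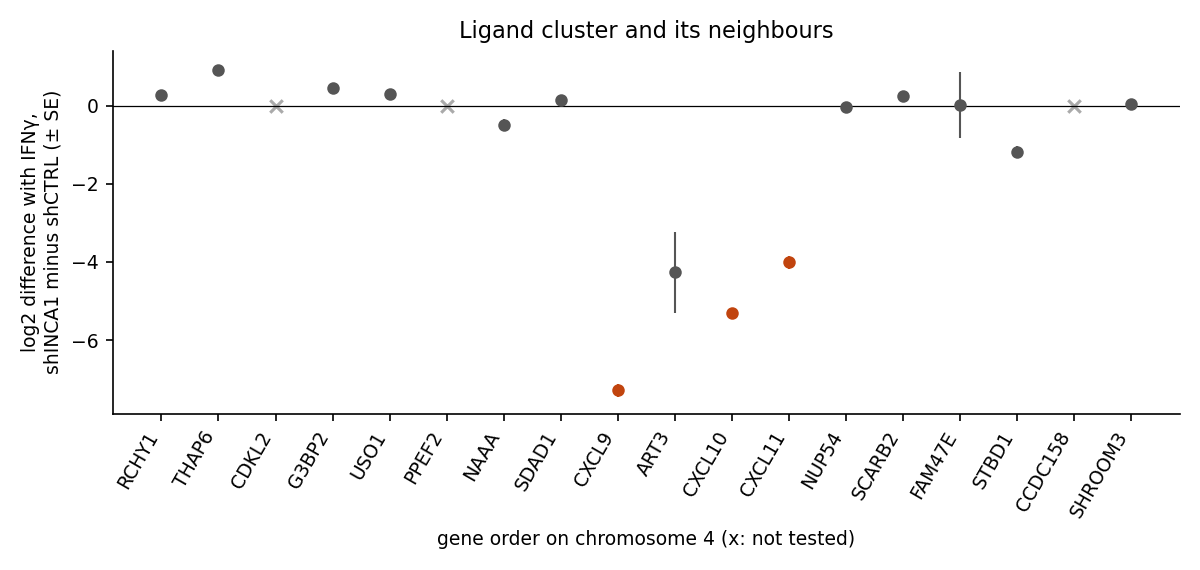
Log2 difference between IFNγ-treated shINCA1 and IFNγ-treated shCTRL cells (± SE) for the ligand genes and their neighbours in their order along chromosome 4, with crosses for genes not tested. CXCL9, ART3, CXCL10 and CXCL11 lie between -7.29 and -4.02, and the other tested neighbours between -1.19 and 0.91.

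The genes whose pattern was most like each ligand were found by Pearson r of log2 CPM over the 12 libraries, among 12974 genes averaging at least 1 CPM. CXCL10 and CXCL11 were each among the other's 5 nearest, with an r of 0.996. CXCL9 had an r of 0.980 with CXCL10 and 0.974 with CXCL11. XAF1, an interferon-induced gene, was among the nearest 5 of all 3 (r = 0.989 with CXCL9, 0.995 with CXCL10 and 0.995 with CXCL11). The others were RIPK2, SETBP1, FBXO7 and MDGA1 for CXCL9, FAS, NACC2 and SP100 for CXCL10, and PLSCR1, ALPK1 and FAS for CXCL11, the highest r being 0.997 for PLSCR1. All points share 4 group levels, so these r values are a description, and with a prior count of 0.5 in place of 2, 2 of the 5 nearest stayed for CXCL9, 3 for CXCL10 and 3 for CXCL11. Their differences between the treated lines were smaller than those of the ligands, at -3.56 ± 0.25 for XAF1, -2.34 ± 0.13 for MDGA1, -1.08 ± 0.08 for FAS and -0.77 ± 0.05 for PLSCR1 on the log2 scale.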

How the data were processed

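RNA-seq of 12 libraries was given as 1 table of estimated counts per gene, whole numbers as deposited by the authors. HISAT2, StringTie, Trimmomatic and FastQC with the build hg19 are named, per the submitters' processing notes. Their versions, the annotation, how reads were counted and whether strand was used were not given in the sources used here. Groups were taken from the labels.

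Genes were filtered with filterByExpr, scaled with TMM and fitted over all 4 groups with edgeR 4.0.16 (R 4.3.3), with quasi-likelihood tests and Benjamini-Hochberg adjustment. Shares and ratios were compared with exact permutation tests. The 15769 tested genes held 99.986% of counts. The step was tested on simulated data. Members of the lists that are not reported here still count in the list totals. The members and lists were chosen with earlier results of these data known. The text names the 3 ligand genes, up to 4 genes per list by smallest p in a comparison, and the 5 genes most like each ligand; some other list members, such as IRF1 in the comparison of treated lines, were named after their values were seen. Alternatives were other scaling, other filters, DESeq2 1.42.0, a replicate block, only the groups compared, and each library left out.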

Additional observations from a re-analysis of the deposited data

Results flagged for a closer look

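The IFNγ responses of 3 list genes differed between the lines by a test of the difference itself (edgeR interaction, shINCA1 minus shCTRL). JAK2 differed by -1.04 ± 0.11 on the log2 scale (adjusted p = 0.000527), SOCS1 by -2.05 ± 0.32 (adjusted p = 0.00672) and SDAD1 by -0.23 ± 0.05 (adjusted p = 0.0265). JAK2 kept its call in all 18 alternatives (-1.13 to -0.96), as did SOCS1 (-2.31 to -1.82), and SDAD1 lost it in 9 of 18. Groups of 3 were not searched for outlying samples.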

How the results depend on the processing

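The 3 ligand genes kept their direction and call in 171 of 171 alternative results over both IFNγ responses and the comparison of treated lines, where the log2 difference ran over -7.60 to -7.09 for CXCL9, -5.38 to -5.25 for CXCL10 and -4.12 to -3.86 for CXCL11. In the difference of responses DESeq2 called CXCL9 (-7.12, adjusted p = 0.0015). CXCL9 was at 0 in every untreated library, so this value adds nothing to the difference between the treated lines. Counts of all genes moved by more than 1.5 times in a few settings. Upper-quartile scaling gave 1970 lowered genes in shCTRL and 733 in shINCA1 cells, against 1184 and 465. DESeq2 gave 718 lowered genes in shINCA1 cells, and 192 larger and 317 smaller responses, against 97 and 173. With each library left out in turn, lowered genes in shINCA1 cells ran over 281 to 481 (lowest without untreated shINCA1 replicate 3), larger responses over 57 to 92 (lowest without treated shINCA1 replicate 3) and smaller responses over 95 to 154 (lowest without untreated shINCA1 replicate 3; also 100 without treated shCTRL replicate 2, 100 without treated shINCA1 replicate 2, 112 without untreated shCTRL replicate 2 and 115 without treated shCTRL replicate 1). Per length the share difference was -16.2 percentage points for CXCL9 and 0.289 for CXCL10, against -27.3 and 8.18. The cause was not tested. Among list genes 5092 of 5236 alternative results kept their call, 97 lost and 47 gained one, and 0 reversed.

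The labels do not say that equal replicate numbers mark a shared culture or day. Deviations of same-numbered samples from their group means had r from -0.0358 to 0.0464, but 8 of 12 samples correlated best with a sample of their own number. How many would do so by chance was not worked out. This is at most a weak hint of pairing, from the data and not the design. A replicate block gave 4468 higher and 4718 lower genes in treated shINCA1 cells, against 4529 and 4762. Counts at or near 0 in untreated cells limit the ligand responses to lower bounds, apart from a rough ratio for CXCL10 in shCTRL cells.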
